A study of Homo sapiens with 2 samples.

Results

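The genes described here encode the core machinery that drives and restrains the cell cycle: cyclins, cyclin-dependent kinases (CDKs), CDK inhibitors, pocket proteins, E2F transcription factors with their DP partners, and the SKP2 and CKS proteins. They were listed by name, and a gene was measured where an array feature carried its symbol and no other. Of 41 listed genes, 39 were measured, among 22368 genes in all. *CDK9* had no value because its feature carries 3 symbols, and *CDKN2C* was not analysed here. CDC25 phosphatases and the kinases opposing them were left out of the list.

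The study examined how miR-184 bears on proliferation and migration of HCECs, a human corneal epithelial line immortalized with SV40. One group received 50 nM of a miR-184 mimic, a synthetic RNA that provides the mature miRNA, and the other received 50 nM of a negative control (NC). Both were grown in DMEM/F12 with serum, insulin and EGF, transfected with Lipofectamine RNAiMAX and taken at 48 h. Each group has 1 array and hence no replicate, so no *P*-value, SD or interval is given, and an effect of miR-184 cannot be told apart from a difference between 2 single cultures.

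In dividing cells, D cyclins bind CDK4 and CDK6 and begin the phosphorylation of the retinoblastoma protein RB, which releases E2F factors to switch on genes for DNA synthesis. Cyclins E and A act with CDK2 around S phase, and cyclins A and B act with CDK1 in G2 and mitosis. INK4 inhibitors bind CDK4 and CDK6, CIP/KIP inhibitors bind whole cyclin-CDK complexes, and SKP2 with CKS1 marks the CIP/KIP protein p27 for destruction. The large T antigen of SV40 is known to bind p53 and the pocket proteins, a limit of any SV40 line as a model of this pathway.

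The mature human miR-184 is shown because the mimic of it is what separates the groups. RefSeq places it at chr15:79209840-79209861 on the plus strand of GRCh38.p14. Capitals mark its seed, bases 2 to 8 from the 5′ end, and 1 mature human miRNA in the RefSeq table, miR-184 itself, had this seed.
hsa-miR-184: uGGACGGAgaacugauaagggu

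Values are deposited log2 signals, and each difference is miR-184 minus NC on that log2 scale. Over all genes the median difference was 0.04. Its SD was 0.46 among the genes at or above the median signal of 4.24 and 0.20 among those below. Of 6 measured epithelial markers, *KRT8*, *KRT18*, *CDH1*, *EPCAM* and *KRT5* lay between 12.35 and 16.83, and *KRT14* lay below the median signal. *KRT5* (13.63 with miR-184, 12.75 with NC) and *CDH1* (15.59 with miR-184, 14.84 with NC) were at least 1.5 times higher with miR-184. The corneal markers *KRT3*, *KRT12* and *PAX6* were at 3.44 to 3.82, below the median signal, so the corneal part of the label was not seen in them. All 6 stromal and all 3 melanocyte markers were below it too, as were 3 of 4 immune markers, with *CD68* at 7.63 with miR-184 and 7.62 with NC. Of 3 endothelial markers *PECAM1* and *VWF* were below it, and *CDH5* was at 6.77 with miR-184 and 8.19 with NC. The part of these markers in the results was not tested.

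Of the 39 measured regulators, 10 were at least 1.5 times lower with miR-184 (25.6%, against 4.16% of all genes) and 1 was at least 1.5 times higher (2.56%, against 3.74% of all genes). The lower genes were *CDKN2B*, *E2F7*, *CCND1*, *E2F4*, *CDKN2A*, *CDKN1B*, *CDK2*, *CCND2*, *CDKN1A* and *CCNF*, and the higher gene was *CDK6*. At or above the median signal lay 36 regulators, of which 27.8% were lower and 2.78% higher, against 7.74% and 6.24% of all genes of such signal. The 3 dimmer ones, *CCNA1*, *CDKN1C* and *CDKN2D*, were within 1.5 times. The median difference of the regulators was -0.21, their quartiles were -0.54 and -0.01, and 30 of the 39 were below 0 (76.9%, against 40.5% of all genes). At or above the median signal, 77.8% of the regulators and 51.2% of all genes were below 0. The regulators, and the related lists below, were chosen with earlier results of these data known. Their contrast with all genes is hence a description and not a test. Past 2 times were *CDKN2B*, *E2F7* and *CCND1*, all lower, and *CDK6*, higher. Of all genes 1.35% were at least 2 times lower and 0.984% higher. At or above the median signal, 297 of 11184 genes were 2 times lower and 208 higher. The 1 higher regulator is too few to tell from such shares. In bulk RNA, fewer cells in a phase of the cycle and less RNA per cell cannot be told apart.

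**Figure D1:**
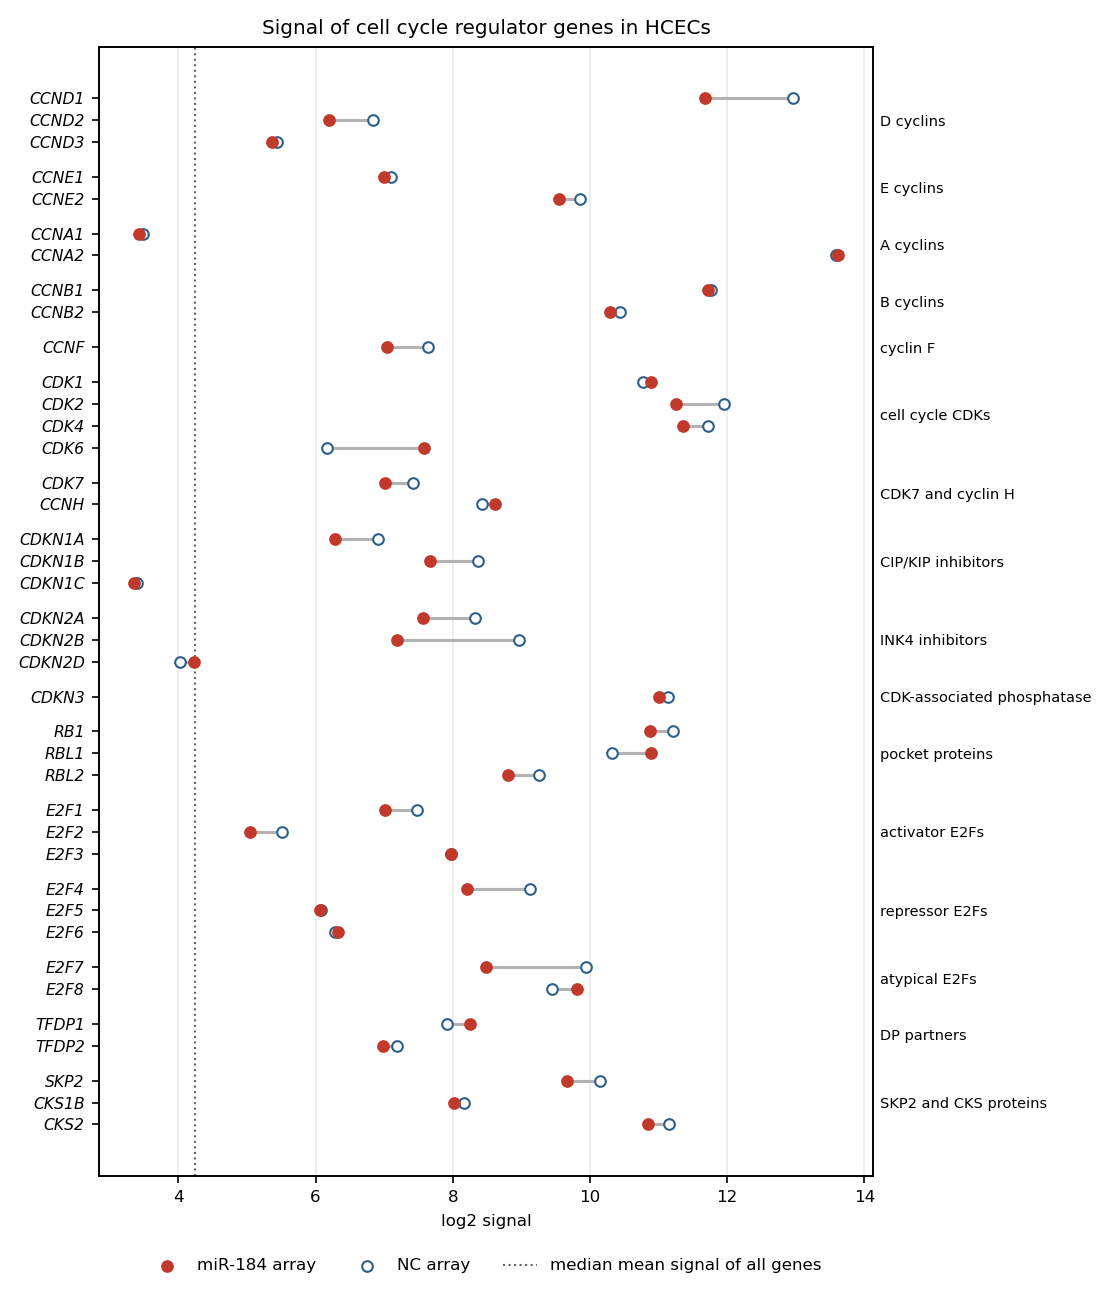
Log2 signal (x axis) of the 39 measured regulators (y axis, grouped by role) with miR-184 (filled circles) and with NC (open circles), 1 array each, joined by grey lines; the dotted line is the median signal of all genes, 4.24. The longest lines belong to *CDKN2B*, *E2F7*, *CDK6* and *CCND1*, and *CCNA1*, *CDKN1C* and *CDKN2D* lie left of the dotted line.

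D cyclins couple growth signals to the cycle in G1. *CCND1* (cyclin D1) was at 11.68 with miR-184 and 12.96 with NC, a difference of -1.28 or 2.42 times lower. *CCND2* (cyclin D2) was at 6.19 with miR-184 and 6.84 with NC, 1.57 times lower. *CCND3* (cyclin D3) was at 5.37 with miR-184 and 5.43 with NC. The D cyclins thus differed among themselves, with the *CCND1* difference 1.22 below that of *CCND3* on the log2 scale. Of the 994 genes around *CCND1* in order of mean signal, 27 had a more negative difference, and of the 1000 around *CCND2*, 68 did.

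The E, A and B cyclins, which act later in the cycle, were all within 1.5 times. So were 9620 of the 11184 genes at or above the median signal. *CCNE1*, which with CDK2 drives entry into S phase, was at 6.99 with miR-184 and 7.10 with NC. *CCNE2*, the second E cyclin, was at 9.55 with miR-184 and 9.86 with NC. Both E cyclins were below 0, by -0.11 and -0.30, and within 1.5 times. *CCNA2*, the A cyclin of dividing somatic cells, was at 13.61 with miR-184 and 13.58 with NC. *CCNA1*, an A cyclin best known from the germ line, was at 3.42 with miR-184 and 3.49 with NC. The mitotic cyclins followed the same pattern of small differences. *CCNB1* was at 11.72 with miR-184 and 11.77 with NC, and *CCNB2* was at 10.29 with miR-184 and 10.44 with NC. *CCNF* encodes an F-box protein that recruits substrates to an SCF ubiquitin ligase and is not known to activate a CDK. It was at 7.04 with miR-184 and 7.64 with NC. At 1.52 times lower it lay closest to the limit among the lower genes, and quantile normalization (-0.54) or removal of the trend with signal (-0.57) put it inside.

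Among the CDKs, the D cyclin partners stood on opposite sides of 0. *CDK6* was at 7.58 with miR-184 and 6.16 with NC, 2.67 times higher, and 4 of the 1000 genes nearest in signal had a more positive difference. *CDK4* was at 11.35 with miR-184 and 11.72 with NC, a difference of -0.36. The gap between the *CDK6* and *CDK4* differences was 1.78. *CDK2*, the partner of cyclins E and A, was at 11.26 with miR-184 and 11.95 with NC, 1.61 times lower. *CDK1*, the mitotic kinase, was at 10.89 with miR-184 and 10.77 with NC. Together with the A and B cyclins, *CDK1* made up a set of 5 genes whose differences ran from -0.16 to 0.12, none past 1.5 times. Most genes were within it too, 9620 of the 11184 at or above the median signal. *CCNA1*, of the 5, lay below that signal, where differences were smaller. *CDK7* and *CCNH* encode the kinase and the cyclin that activate other CDKs and also act on RNA polymerase II. *CDK7* was at 7.01 with miR-184 and 7.42 with NC, and *CCNH* was at 8.61 with miR-184 and 8.43 with NC, both within 1.5 times.

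Of 6 measured CDK inhibitors of the INK4 and CIP/KIP families, 4 were at least 1.5 times lower with miR-184 and none higher, with a median difference of -0.66. Of all genes 4.16% were lower, and of those at or above the median signal, where these 4 lie, 7.74%. *CDKN2B*, which encodes the INK4 protein p15, was at 7.19 with miR-184 and 8.96 with NC. This was 3.42 times lower, the largest difference among the 39 regulators, and 6 of the 1000 genes nearest in signal had a more negative one. *CDKN2A* encodes p16 and, from another reading frame, the p53 activator ARF. Its feature was at 7.56 with miR-184 and 8.32 with NC, 1.70 times lower, and does not say which transcript differed. *CDKN2D*, which encodes the INK4 protein p19, was at 4.23 with miR-184 and 4.02 with NC.

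Of the CIP/KIP genes, *CDKN1A* and *CDKN1B* were past 1.5 times and *CDKN1C*, of low signal, was not. *CDKN1A*, a p53 target that encodes p21, was at 6.28 with miR-184 and 6.91 with NC, 1.54 times lower. *CDKN1B*, which encodes p27, was at 7.67 with miR-184 and 8.37 with NC, 1.62 times lower. *CDKN1C*, which encodes p57, was at 3.36 with miR-184 and 3.40 with NC. The 4 lower inhibitors all lay above the median signal, and *CDKN2D* and *CDKN1C* lay below it, where the differences of all genes were smaller. *CDKN3*, a phosphatase that acts on CDK2, was at 11.01 with miR-184 and 11.13 with NC.

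**Figure D2:**
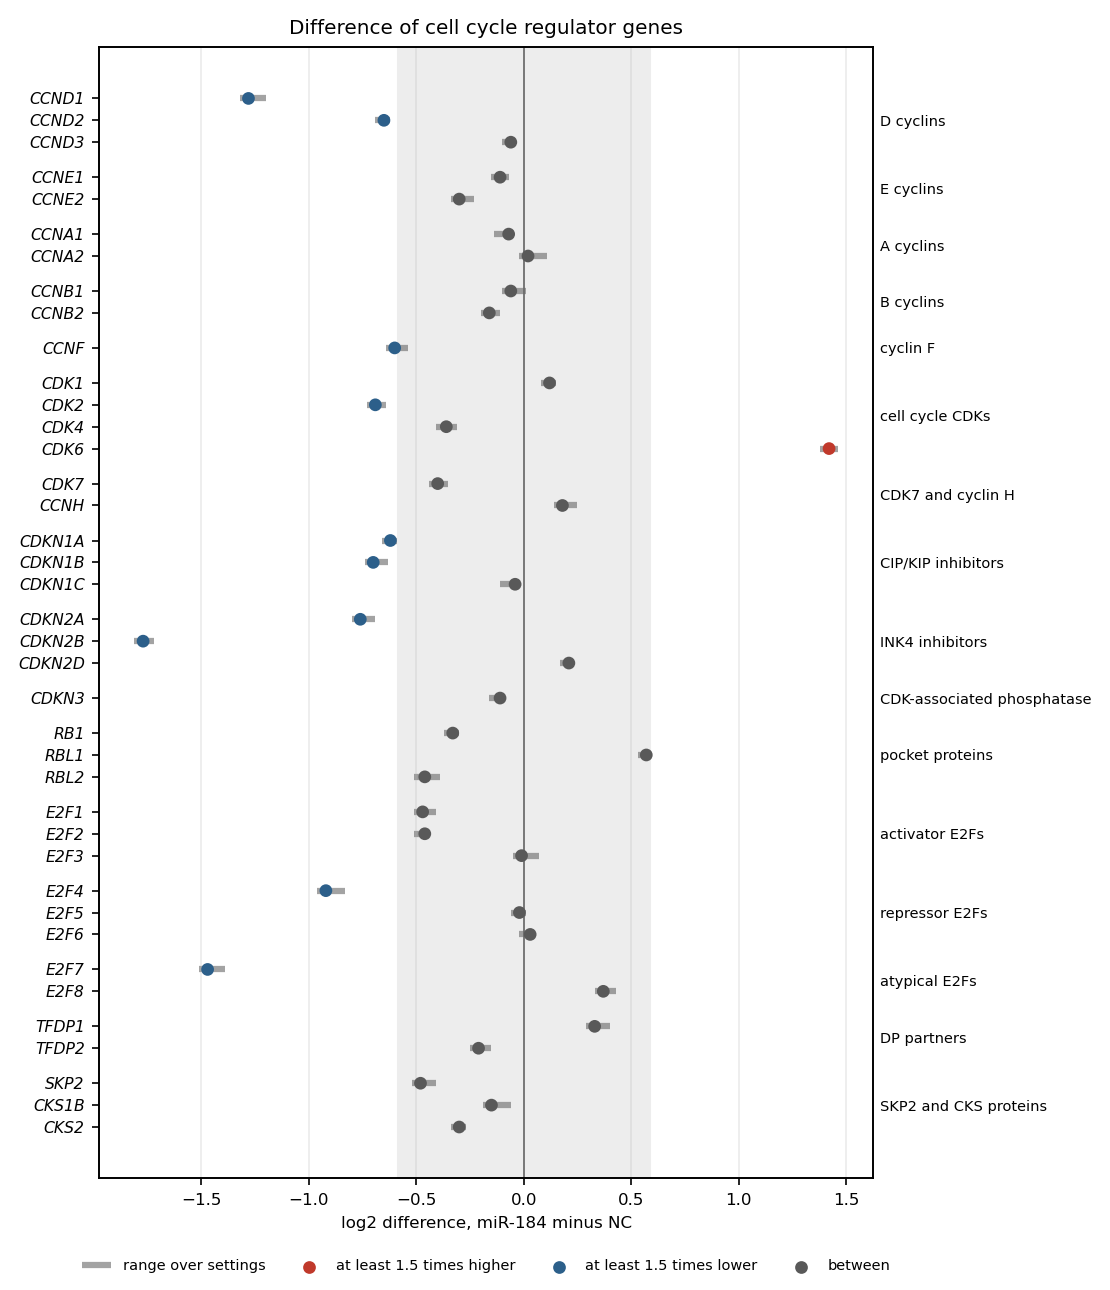
Log2 difference, miR-184 minus NC (x axis), of the 39 measured regulators (y axis, grouped by role). Points are red where at least 1.5 times higher, blue where at least 1.5 times lower and grey where between. Grey bars span the value over the processing settings, the deposited values included, and shading marks less than 1.5 times. *CDK6* lies right of the shading, 10 genes lie left of it, from -0.60 for *CCNF* to -1.77 for *CDKN2B*, and *RBL1* lies just inside its right edge at 0.57.

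Pocket proteins bind E2F factors and keep their target genes silent in resting cells. *RB1* was at 10.88 with miR-184 and 11.21 with NC. *RBL2*, which encodes p130, was at 8.80 with miR-184 and 9.26 with NC. *RBL1*, which encodes p107, was at 10.89 with miR-184 and 10.32 with NC. *RBL1* was the nearest gene below the limit on the higher side, 1.48 times higher, and it passed after quantile normalization and after removal of the trend with signal. Its difference lay 1.03 above that of *RBL2*.

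The E2F factors spread on both sides of 0. *E2F1*, an activator of S phase genes, was at 7.01 with miR-184 and 7.48 with NC. *E2F2* was at 5.05 with miR-184 and 5.51 with NC, and *E2F3* was at 7.98 in both arrays. No activator E2F was past 1.5 times. *E2F4*, a repressor that works with p107 and p130, was at 8.20 with miR-184 and 9.12 with NC, 1.89 times lower. *E2F5*, its closest relative, was at 6.06 with miR-184 and 6.08 with NC. *E2F6*, a repressor that does not bind pocket proteins, was at 6.32 with miR-184 and 6.29 with NC.

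E2F7 and E2F8 are atypical factors, which bind DNA without a DP partner and repress E2F target genes. *E2F7* was at 8.48 with miR-184 and 9.94 with NC, 2.76 times lower, and 19 of the 1000 genes nearest in signal had a more negative difference. *E2F8* was at 9.81 with miR-184 and 9.44 with NC, a difference of 0.37. The atypical genes thus lay on opposite sides of 0, with *E2F7* minus *E2F8* at -1.84. Of the DP partners, which most E2F factors need to bind DNA, *TFDP1* was at 8.25 with miR-184 and 7.92 with NC, and *TFDP2* was at 6.98 with miR-184 and 7.18 with NC. *SKP2*, the F-box protein that selects p27, was at 9.67 with miR-184 and 10.15 with NC. Its cofactor *CKS1B* was at 8.02 with miR-184 and 8.17 with NC, and *CKS2*, a related CDK-binding protein, was at 10.85 with miR-184 and 11.15 with NC. All 3 were below 0 and within 1.5 times.

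**Figure D3:**
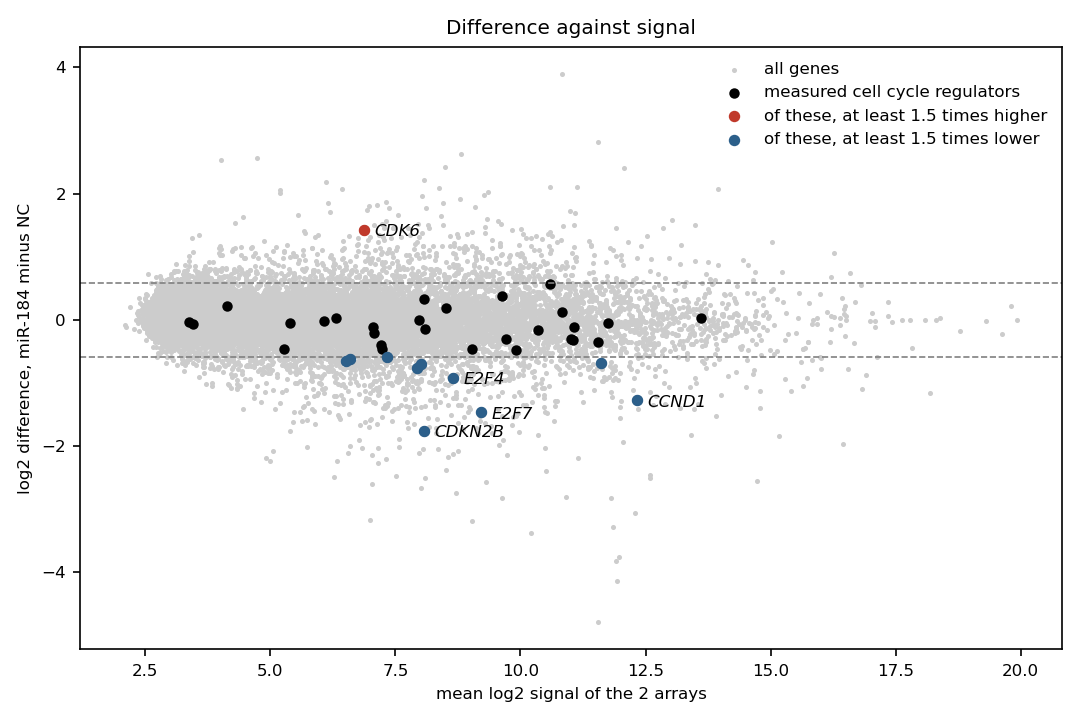
Log2 difference, miR-184 minus NC (y axis), against the mean log2 signal of the arrays (x axis) for all 22368 genes (small grey points) and the 39 measured regulators (black, or red where at least 1.5 times higher and blue where at least 1.5 times lower); dashed lines mark 1.5 times. *CDK6*, *E2F7* and *CDKN2B* lie outside the central 95% of the genes nearest in signal, and *CCND1* lies just inside.

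Differences as large as those of most of the lower regulators were also found in other genes of like signal. The central 95% of the 1000 genes nearest in signal ran from -1.12 to 1.03 for *CDKN2B*, from -1.25 to 1.11 for *E2F7* and from -1.06 to 0.81 for *CDK6*, and these 3 genes lay outside. They were the only ones outside among the 39 measured regulators. Such a range leaves some genes outside by its making, and 3 of 39 is near that share. For *CCND1* the range was -1.31 to 0.95, which held its difference. *E2F4* had 52 of 1000 genes with a more negative difference, and the other 6 lower genes had between 68 (*CCND2*) and 90 (*CCNF*). Such ranges describe the spread between genes and are no replicate error.

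The promoters of the regulators are shown where they carry the DNA element of the E2F factors. RefSeq promoters of GRCh38.p14, from 250 bases before to 50 after the gene start, matched 34 of the 41 genes, without *CCND1*, *CCND2*, *CCNE2*, *CDK2*, *CDKN1C*, *E2F5* and *E2F8*. The element was searched on both strands as TTTCCCGC, TTTGGCGC, TTTCGCGC and TTTGCCGC. It was in 6 of the 34 (17.6%), against 3.33% of all 27305 promoters and 4.44% of the 15842 of protein-coding genes. *RBL1* and *E2F1* held 2 matches each. Capitals mark the matches, and each window of 30 bases reads 5′ to 3′ on the strand of its gene.
*CDK1*, chr10:60778339-60778368, plus strand: tttcctctttcTTTCGCGCtctagccaccc
*RBL1*, chr20:37096000-37096029, minus strand: gcagatTTTCGCGCgcTTTGGCGCaggtgg
*E2F1*, chr20:33686393-33686422, minus strand: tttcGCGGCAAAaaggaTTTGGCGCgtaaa
*E2F2*, chr1:23531257-23531286, minus strand: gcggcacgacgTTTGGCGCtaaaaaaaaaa
*E2F3*, chr6:20401815-20401844, plus strand: ttgaaaagccgGCGGGAAAtccgagtttcg
*TFDP1*, chr13:113584622-113584651, plus strand: gggcgccgaagGCGCGAAAaggcgcgcagg

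In the deposited values these 6 genes were all within 1.5 times. Their differences were 0.12 for *CDK1*, 0.57 for *RBL1*, -0.47 for *E2F1*, -0.46 for *E2F2*, -0.01 for *E2F3* and 0.33 for *TFDP1*. *RBL1* passed 1.5 times after quantile normalization and after removal of the trend with signal. The median of the 6 was 0.06. The 26 measured genes whose window lacked these letters had a median of -0.26, with 7 lower and 1 higher. Of all 39 measured regulators 25.6% were lower, and 6 genes are too few to tell from that share. The lower genes *CCND1*, *CCND2* and *CDK2* had no promoter to search. The CHR, an element of late cell cycle genes, was searched as TTTGAA on both strands. It was in 8 windows (23.5%, against 15.4% of all promoters and 12.1% of protein-coding ones). Of the 8 genes *CCNF* alone was past 1.5 times, lower, and of the 24 measured genes without the CHR 6 were lower and 1 higher. The CCAAT box, searched as CCAAT on both strands, was in 14 windows (41.2%, against 35.7% of all and 36.4% of protein-coding promoters). Among them were those of *E2F7*, *CDKN1B* and *CCNF*. Of the 14 genes with it 3 were lower, and of the 18 measured genes without it 4 were. Of all genes 4.16% were lower, and of those at or above the median signal 7.74%. The groups with these motifs are too small to tell apart from the groups without them. No match of one motif overlapped a match of another in the 34 windows. A match describes the letters alone.

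Other genes of the pathway were counted in lists. Of 20 measured E2F target genes of G1 and S phase, 7 were at least 1.5 times lower and none higher, with a median difference of -0.51 and 18 below 0. All 20 lay above the median signal, where 7.74% of all genes were lower and 6.24% higher. *TYMS*, which makes thymidylate for DNA, was at 9.78 with miR-184 and 11.16 with NC. *MCM5*, a subunit of the replicative helicase, was at 9.34 with miR-184 and 10.17 with NC. *DTL*, a substrate receptor of a ubiquitin ligase active in S phase, was at 10.65 with miR-184 and 11.45 with NC. These 3 had the most negative differences in the list. MuvB proteins, MYB factors and FOXM1 control genes of the quiescent and the late cycle, and of 8 measured genes 1 was lower and 1 higher, with a median of -0.18. With so few genes, 1 in each direction is near the shares of 7.74% and 6.24% of all genes of such signal. *FOXM1*, an activator of mitotic genes, was at 10.01 with miR-184 and 11.37 with NC, and *MYBL1*, a MYB factor best known from the germ line, was at 10.56 with miR-184 and 9.38 with NC.

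Of 14 other cyclins, 2 were lower and none higher, with a median of -0.28, against 4.16% of all genes lower and 7.74% of those at or above the median signal, where 12 of the 14 lay. They were *CCNI* (10.58 with miR-184, 11.34 with NC) and the p53 target *CCNG1* (11.02 with miR-184, 11.67 with NC). Of 14 other CDKs and CDK partners, 1 was lower and 4 higher, with a median of 0.05. Here 12 of the 14 also lay at or above the median signal, so the 1 lower gene is near the 7.74% of all such genes, and the 4 higher ones stand beside 6.24%. *CDK14*, a partner of cyclin Y, was at 7.08 with miR-184 and 5.84 with NC, *CDK8* of the Mediator complex at 8.46 with miR-184 and 7.63 with NC, and *CDK5*, best known from neurons, at 7.54 with miR-184 and 8.31 with NC. Of 22 genes of the SCF and APC/C ubiquitin ligases, which mark cyclins and CDK inhibitors for destruction, 2 were lower and none higher, with a median of 0.02. All 22 lay above the median signal, and 2 of 22 is near the 7.74% of all genes there. The lower genes were the F-box gene *FBXW11* (8.97 with miR-184, 9.61 with NC) and the APC/C subunit gene *ANAPC5* (9.07 with miR-184, 9.67 with NC).

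**Figure D4:**
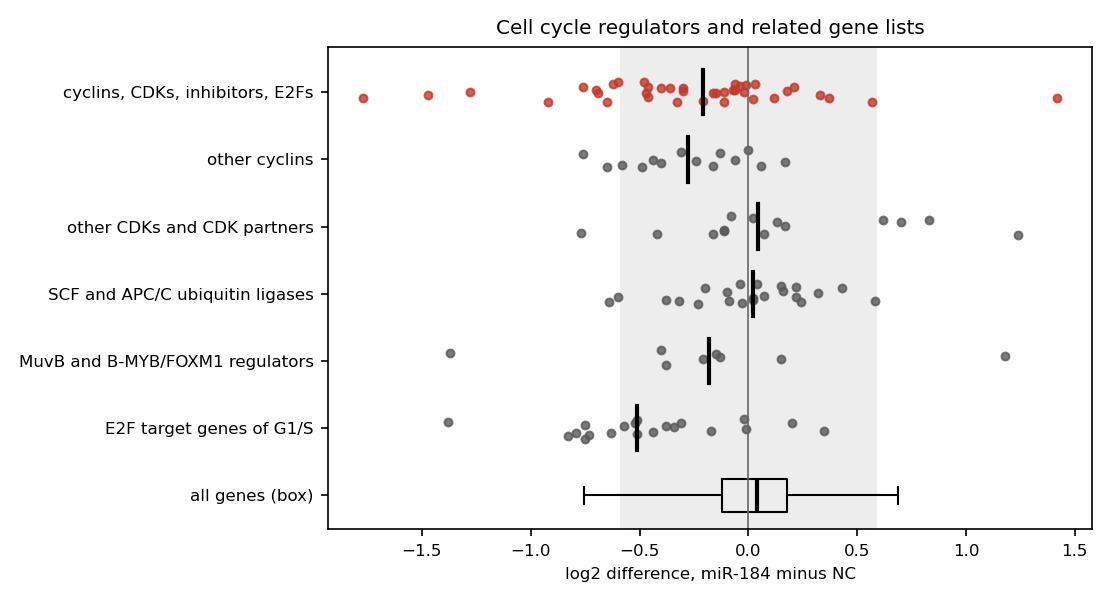
Log2 difference, miR-184 minus NC (x axis), of the 39 measured regulators (top row, red), of the genes of 5 related lists (grey) and of all genes (box of quartiles and median, with whiskers around the central 95%); upright black bars are medians and shading marks less than 1.5 times. The medians are -0.21 for the regulators, -0.51 for the E2F target genes, -0.28 to 0.05 for the other lists and 0.04 for all genes.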

How the data were processed

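Total RNA of HCECs was profiled on 1 array per group, and neither labels nor methods describe a replicate culture. The authors' methods name the Affymetrix Human Transcriptome Array, Command Console and Expression Console. The labels describe a 1-colour Cy3 protocol from Agilent, with Agilent Feature Extraction 9.1 in the submitters' processing notes, whereas the identifiers in the table have the Affymetrix form. The deposited values are log2 signals of 65854 features, normalized by the authors (robust multi-array averaging at gene level, by their column headings), and were used as they stand. The build of the array was not given in the sources used here.

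A feature named a gene where the platform annotation gave it 1 symbol (23730 features), updated to RefSeq of GRCh38.p14 (303 symbols changed). The feature with the highest mean signal stood for a gene, and each measured regulator had 1 feature. Genes were counted at 1.5 times in either direction. The study set a limit of about this size for lower genes only, in its results and together with a *P* threshold. All measured regulators are named, with up to 3 genes past that limit from each related list. Genes nearest in signal are up to 500 on each side by mean signal. Regulators and lists were chosen with earlier results of these data known. The counting and normalization steps were tested on simulated shifts with less noise than the spread of these data. False calls at the spread of these data were not tested. Python 3.11.15, numpy 2.4.6, pandas 2.3.3, statsmodels 0.14.6 and matplotlib 3.10.9 were used.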

Additional observations from a re-analysis of the deposited data

How the results depend on the processing

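Other settings were tried for the regulators. Centring each difference on the median of all genes left 10 lower and 1 higher. Averaging the features of each gene, and keeping genes of at least median signal, left the same counts. Neither could change them, since each measured regulator has 1 feature and all 11 regulators past 1.5 times lay above the median signal. Quantile normalization left 9 lower and 2 higher, and so did a lowess fit (span 0.3) that took out the trend with signal. In both, *CCNF* dropped out and *RBL1* joined *CDK6*. At a limit of 2 times 3 were lower and 1 higher, against 1.35% and 0.984% of all genes. The median difference ran from -0.30 to -0.15. Of 192 values of single regulators under other settings, 188 stayed on their side of 1.5 times, and the other 4 were those of *CCNF* and *RBL1*. The 192 include the values from feature averaging and from the signal filter, which could not move. Regulators near 0 (*CCNA2*, *CCNB1*, *E2F3*, *E2F5* and *E2F6*) changed sign between settings. With 1 array a group, a sign that held over the settings is not settled either. No paired analysis was possible because each group has 1 array, which also leaves no replicate to leave out. The number of arrays limits the precision, and no gene has an error.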

Other observations

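The nearest measured genes on each side of the 11 regulators past 1.5 times, up to 2 a side in RefSeq order, were also read. They were 43 genes with a median difference of -0.02, of which 4 were at least 1.5 times lower and none higher. *CDKN2A* and *CDKN2B*, near neighbours on chromosome 9, made up 2 of the 4 and were themselves picked for being past 1.5 times. Of the other 41 genes 2 were lower (4.88%), near the 4.16% of all genes. *DMRTA1*, a DMRT family gene next to *CDKN2B*, was at 4.87 with miR-184 and 5.52 with NC, and *CSRP2*, a LIM protein gene next to *E2F7*, was at 6.51 with miR-184 and 7.10 with NC. The antisense RNA gene *CDKN2B-AS1* was at 5.57 with miR-184 and 6.15 with NC, just within 1.5 times, and *MTAP*, on the far side of *CDKN2A*, was at 9.43 with miR-184 and 9.28 with NC. All 4 neighbours of *CCND1*, of *CDK2* and of *CDK6* were within 1.5 times.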
